A study of Schizocardium californicum with 12 samples.

Results

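The response to X-irradiation was compared between larvae and juveniles of the hemichordate *Schizocardium californicum*, an indirectly developing marine worm, and the genes whose response differed between the stages are described here. A gene was taken as differing when the change in juveniles (200 Gy over 0 Gy) minus the change in larvae (120 Gy over 0 Gy), on the log2 scale, passed the test in a fit to all 12 libraries. Of 20780 genes tested, 722 passed (3.47%): for 333 the difference was below 0, called lower here (1.6%), and for 389 above 0, called higher (1.87%). At an unadjusted p of 0.05 the number was 4081 (19.6%). The 4 groups were control larvae, larvae exposed to 120 Gy, control juveniles and juveniles exposed to 200 Gy, with 3 libraries in each. Every library came from a pool of 5 whole animals collected 3 days after treatment, and no strain or genotype was named. Because the dose differed with the stage, dose and stage cannot be told apart in any value given here. The study's methods describe the 3 pools of a group as independent biological replicates, and whether they came from separate cultures is not given in the sources used here, so the p-values measure the spread between these pools.

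X-rays break DNA. Cells that divide are the most sensitive to them, and in many animals the p53 pathway then arrests or kills such cells and switches on repair genes. In this worm the larva swims and feeds with ciliary bands, and the juvenile is a burrowing worm with a proboscis, collar and trunk, so that the stages differ in tissue makeup before any treatment. Whole animals were sequenced in bulk, and fewer cells of a type cannot be told apart from less RNA per cell.

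The values are normalized counts, that is, reads on a gene divided by the size of its library after trimmed-mean (TMM) scaling and brought to a common library size. They are not corrected for gene length. Gene symbols are the names the files give, with a number after the hyphen for each copy, and the role given for a gene is that of the protein it is named for. Reads on genes numbered 7675726 to 26974509 per library. The fold changes are log2 values with their standard error (SE), and the adjusted p-values are from edgeR's quasi-likelihood test with the Benjamini-Hochberg adjustment over all genes tested. The threshold for a call was an adjusted p of 0.05.

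The stages differed first in how many genes responded. In larvae, 814 genes were called (3.92%), 425 lower (2.05%) and 389 higher (1.87%). Juveniles had 4543 called genes (21.9%), of which 2297 were lower (11.1%) and 2246 higher (10.8%). The median size of the change over all genes was 0.28 in larvae and 0.40 in juveniles, with a median SE of 0.24 in each. Changes of more than 1 in either direction were fitted for 2038 genes in larvae and 2853 in juveniles.

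Most genes called in a single stage were not shown to differ between the stages. Of 2069 genes called lower in juveniles but not in larvae, the difference itself was called for 251 (12.1%, or 1.21% of genes tested), and of 2055 called higher in juveniles but not in larvae, for 327 (15.9%, or 1.57% of genes tested). In larvae, 202 genes were called lower and 193 higher without a call in juveniles, and the difference was called for 36 (17.8%) and 40 (20.7%) of them, or 0.173% and 0.192% of genes tested. Where the difference was not called, the other stage often had a change of the same sign: 1374 of the 1818 genes lower in juveniles, 1410 of the 1728 higher in juveniles, 141 of the 166 lower in larvae and 135 of the 153 higher in larvae. Both stages were called lower for 218 genes and higher for 186, and among these the difference was called for 13 and 15. Opposite directions were called for 15 genes. The remaining 25 genes with a called difference had no call in either stage.

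**Figure D1:**
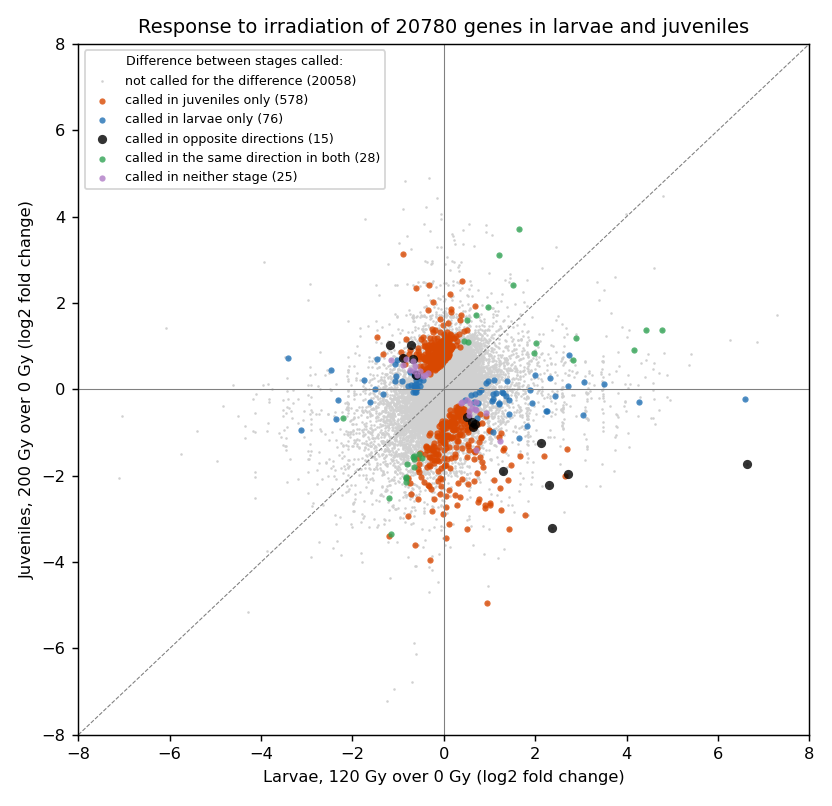
Each point is a gene, placed by its log2 fold change in larvae (120 Gy over 0 Gy, horizontal axis) and in juveniles (200 Gy over 0 Gy, vertical axis), and colored points are the 722 genes whose difference was called. The 578 genes called in juveniles only lie along the vertical axis, the 76 called in larvae only along the horizontal axis, and the 15 called in opposite directions in the upper left and the lower right.

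Genes called in opposite directions are described first. In 10 of them the larvae rose and the juveniles fell, and in 5 the larvae fell and the juveniles rose (0.0481% and 0.0241% of genes tested). Libraries without overlap between irradiated and control animals in both stages, in opposite directions, were found for 410 genes (1.97%). Of each direction 4 genes, 8 in all, met all the limits for naming. They are not of 1 pathway: they include a mucus protein, 3 enzymes of lipid, folate and sulfate ester metabolism, a detoxifying enzyme, a growth factor, a peptidase and a matrix protein.

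Fcgbp-5 (SCA05137, chr17A_Sc2) is named for the Fc fragment binding protein of mammalian mucus. The normalized counts were 13.9, 12.4 and 8.76 in control larvae and 63.5, 44.1 and 62.3 in irradiated ones, and 201, 313 and 284 in control juveniles and 50.6, 59.3 and 62.1 in irradiated ones. The irradiated groups of both stages therefore had about the same level, while the controls differed by 4.53 ± 0.27 between juveniles and larvae. The gene rose by 2.31 ± 0.28 in larvae and fell by 2.21 ± 0.22 in juveniles, with a difference of −4.52 ± 0.35 (adjusted p = 0.00012). Of its reads, 89.9% were uniquely placed, the lowest share of these 8 genes, and 18.3% lay in introns.

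Ggh-3 (SCA19416, chr7A_Sc2), gamma-glutamyl hydrolase, acts on folates. In larvae the controls had 142, 107 and 126 normalized counts and the irradiated pools 171, 183 and 217, and in juveniles the controls had 606, 570 and 591 and the irradiated pools 349, 349 and 355. No library of an irradiated group overlapped with its controls. The change was 0.61 ± 0.14 in larvae and −0.75 ± 0.13 in juveniles, a difference of −1.36 ± 0.19 (adjusted p = 0.0111). Acsf4-13 (SCA24659, chr6A_Sc2) belongs to the acyl-CoA synthetase family. Control larvae had 1098, 889 and 1199 and irradiated larvae 1559, 1772 and 1661 normalized counts, while control juveniles had 780, 561 and 818 and irradiated juveniles 363, 373 and 440. All irradiated larvae lay above, and all irradiated juveniles below, the controls of their stage, with a difference of −1.52 ± 0.23 (adjusted p = 0.0113). Arsj-5 (SCA18530, chr19A_Sc2) is an arylsulfatase. In larvae it rose by 0.50 ± 0.13 and in juveniles it fell by 0.63 ± 0.13, which gave a difference of −1.13 ± 0.19 (adjusted p = 0.0117).

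The opposite pattern was seen for Tgfb2-2 (SCA15441, chr1A_Sc2), a transforming growth factor beta ligand. It had 142, 142 and 141 normalized counts in larvae without and 98.95, 76.8 and 80.4 with irradiation, and 252, 228 and 212 in juveniles without and 350, 506 and 562 with irradiation. The 3 control larval pools were close to each other and above every irradiated one, and the lowest irradiated juvenile lay above the highest control juvenile. It fell by 0.72 ± 0.19 in larvae and rose by 1.04 ± 0.17 in juveniles, a difference of 1.76 ± 0.25 (adjusted p = 0.0111). Ampn-16 (SCA04184, chr3A_Sc2), an aminopeptidase of the kind found on absorptive epithelia in vertebrates, fell by 0.90 ± 0.19 in larvae and rose by 0.72 ± 0.18 in juveniles, a difference of 1.62 ± 0.27 (adjusted p = 0.0117). Gsta4-1 (SCA24710, chr6A_Sc2), a glutathione S-transferase, fell by 1.18 ± 0.25 in larvae and rose by 1.03 ± 0.28 in juveniles. Its control larvae (282, 515 and 539) lay far above its control juveniles (52.4, 46.8 and 54.8). Hmcn1-24 (SCA17784, chr12A_Sc2), a hemicentin of the extracellular matrix, differed by 1.38 ± 0.22 (adjusted p = 0.0113) on all reads, but on exon reads alone the difference was 0.41 with an adjusted p of 0.896. In juveniles it had only 40.2, 45.3 and 38.1 normalized counts in controls and 76.9, 61.9 and 62.1 after irradiation, against 2901, 2268 and 3112 in control larvae.

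**Figure D2:**
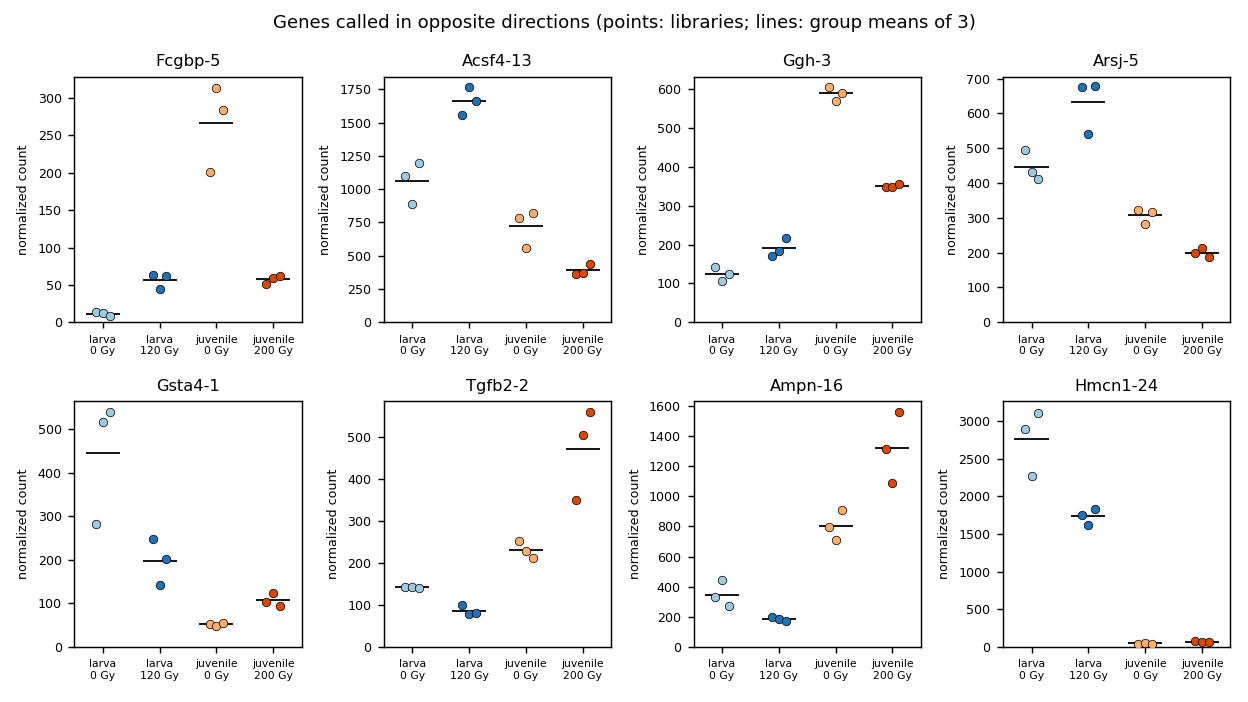
Normalized counts (vertical axes, starting at 0) of the 8 named genes called in opposite directions, with a point for each of the 3 libraries of a group and a line at the group mean. In the upper row larvae rose and juveniles fell, and in the lower row larvae fell and juveniles rose. In Fcgbp-5 both irradiated groups lie between 44.1 and 63.5.

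A further gene of the first kind, chosen after its values were seen, is Ttc22-14 (SCA18351, chr12A_Sc2). Its larval level was close to the limit of detection, at 0, 1.03 and 2.92 normalized counts in controls and 6.82, 10.2 and 9.05 after irradiation. Juveniles went from 625, 453 and 477 to 48.5, 54.03 and 62.6. The difference of −5.59 ± 0.55 (adjusted p = 0.00116) thus rests, on the larval side, on few reads.

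Genes of innate immunity were among those that fell in juveniles alone. Guanylate-binding proteins, GTPases that interferon induces in vertebrates, and oligoadenylate synthetases, which sense double-stranded RNA, were among them. Gbp3-2 (SCA02837, chr2A_Sc2) had the largest difference among the 170 genes of this class that met the limits for naming. The normalized counts were 31.2, 20.6 and 29.2 in control larvae and 50.5, 39.6 and 60.3 in irradiated ones, and 129, 108 and 102 in control juveniles and 19.2, 11.9 and 19.9 in irradiated ones. Juveniles without irradiation were well above larvae, and irradiated juveniles were below every larval library. Irradiated larvae lay above control larvae without overlap, though the larval change was not called. The change was −2.68 ± 0.27 in juveniles and 0.91 ± 0.27 in larvae, where the adjusted p was 0.0794, and the difference was −3.59 ± 0.38 (adjusted p = 0.00193). Gbp1-1 (SCA01654, chr2A_Sc2) fell by 2.73 ± 0.34 in juveniles, with 166, 174 and 143 normalized counts in controls and 37.4, 13.2 and 21.4 after irradiation. Larvae had 15.6, 18.6 and 31.1 without and 23.9, 16.95 and 28.2 with irradiation, and these groups overlapped. Oas3-2 (SCA24072, chr6A_Sc2), chosen after its values were seen, fell by 2.68 ± 0.28 in juveniles. Its larval controls had 3.46, 3.09 and 2.92 normalized counts, so that a fall in larvae could hardly have been measured, and its difference was −3.69 ± 0.57 (adjusted p = 0.0113). Mx1, an interferon-induced GTPase in vertebrates and chosen after its values were seen, also fell in juveniles (−2.44 ± 0.34). Its larval change of −0.83 ± 0.33 was in the same direction, and the difference of −1.61 ± 0.46 had an adjusted p of 0.0761.

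Over the list of antiviral and interferon-type genes, 128 of the 239 tested fell in juveniles and 1 rose, against 21 and 1 in larvae. Over all genes, 11.1% fell and 10.8% rose in juveniles, and 2.05% and 1.87% in larvae. The difference was called lower for 17 members (7.11%, against 1.6% of all genes) and higher for none. The medians were −0.46 in larvae, −1.22 in juveniles and −0.74 for the difference, beside 0.01, −0.04 and −0.04 over all genes tested. The level of the list differed before treatment: the median log2 ratio of control juveniles to control larvae was 1.94. Summed over the list, control juveniles had 85457, 141537 and 82236 normalized counts and irradiated juveniles 34804, 36287 and 39476. The control pool with the highest sum stood apart from the other 2, and without it 13 members had a called difference. Over all single libraries left out in turn, the number was 5 to 16, lowest without the first irradiated juvenile pool. Control larvae summed to 26047 to 39132 and irradiated larvae to 20159 to 22822.

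The Toll-like receptor, TRAF and NF-kB list covers a pathway from membrane receptors to a transcription factor. Of its 239 genes tested, 93 were lower and 3 higher in juveniles, where 11.1% and 10.8% of all genes were. In larvae 18 were lower and 0 higher, beside 2.05% and 1.87% of all genes. For the difference 20 were lower and 1 higher (8.37% and 0.418%, against 1.6% and 1.87% of all genes). Its medians were −0.22 in larvae, −0.76 in juveniles and −0.52 for the difference. Without single libraries, 10 to 23 members had a called lower difference, the fewest again without the first irradiated juvenile pool. Among receptors, Tlr6-19 (SCA10271, chr10A_Sc2) fell by 2.83 ± 0.29 in juveniles. In larvae the controls had 53.7, 35.1 and 48.6 normalized counts and the irradiated pools 42.99, 32.8 and 36.2, and in juveniles the controls had 181, 246 and 154 and the irradiated pools 29.3, 14.5 and 33.97. The larval groups overlapped, the juvenile groups did not, and the difference was −2.56 ± 0.42 (adjusted p = 0.0117). Among adaptors, Traf2-30 (SCA05594, chr17A_Sc2) fell in both stages and more in juveniles. Control larvae had 603, 671 and 1002 and irradiated larvae 427, 250 and 348 normalized counts, while control juveniles had 2459, 4279 and 2629 and irradiated juveniles 280, 266 and 367. After irradiation both stages thus had similar levels, and the difference in response was −2.20 ± 0.37 (adjusted p = 0.0119).

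Several intracellular members of the same pathway, named here after their values were seen, fell in both stages and more in juveniles. They are Irak1-1, the kinase below the receptors, Rnf31-2, named for a ubiquitin ligase of linear chains, Nemo, the regulatory subunit of the I-kappa-B kinase, Tnap3, named for the deubiquitinase A20, and Malt1, a paracaspase. Malt1 fell by 0.66 ± 0.13 in larvae and in juveniles it fell by 1.80 ± 0.14, and the differences of the 5 genes lay between −1.14 ± 0.19 and −0.89 ± 0.16, with adjusted p-values between 0.0113 and 0.0281. In control juveniles Malt1 had 603, 675 and 555 normalized counts, against 379, 376 and 468 in control larvae, which is a ratio of 0.58 ± 0.13.

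Other genes that fell in juveniles alone are of different kinds. Atp7a-2 (SCA24589, chr6A_Sc2), named for a copper-transporting ATPase and chosen after its values were seen, fell by 2.19 ± 0.21 in juveniles, from 1336, 1231 and 1434 to 277, 314 and 290 normalized counts. Larvae had similar control levels (1907, 1653 and 1748) and values of 1794, 3643 and 2209 after irradiation, where the groups overlapped, and the difference was −2.71 ± 0.29 (adjusted p = 0.00193). This gene is therefore an instance where the stages began near the same level. Ymd3-16 (SCA02905, chr2A_Sc2) and Rtbs-11 (SCA01651, chr2A_Sc2), both with names of transposon-derived proteins, fell by 2.68 ± 0.37 and 2.47 in juveniles, with differences of −2.98 ± 0.55 (adjusted p = 0.0152) and −2.52 ± 0.33 (adjusted p = 0.00916). Of 478 tested genes on the transposon-derived list, 6 had a lower and 2 a higher difference, which is below the share over all genes. Cdk1-1 (SCA19131, chr19A_Sc2), a cyclin-dependent kinase by name, was the only mitosis gene with a called difference and fell by 1.65 ± 0.20 in juveniles, from 247, 235 and 163.2 to 65.7, 54.03 and 82.02. Larvae had 64.1, 54.6 and 56.4 without and 53.9, 54.2 and 54.3 with irradiation, and its difference of −1.55 ± 0.30 had an adjusted p of 0.0183.

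Of the 4 genes with the largest differences among the 170 of this class that met the limits for naming, 2 ion channels by name were less certain. Trpa1-13, named for a channel that senses irritants, fell by 3.11 ± 0.47 in juveniles, but 38.9% of its reads lay in introns and on exon reads the difference moved from −3.23 ± 0.67 to −1.38 with an adjusted p of 0.684. Otop3-3, named for a proton channel, had 285, 868 and 232 normalized counts in control juveniles, where the second pool was well above the others, and its difference of −3.21 ± 0.74 (adjusted p = 0.0355) was not called when any 1 of 7 libraries was left out.

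Genes of motile cilia made up 49 of the 327 genes that rose in juveniles alone. The axoneme, the moving core of a cilium, is built of doublet microtubules with tektins inside them, dynein motors between them and radial spokes. Of 112 cilia genes tested, 79 rose and 1 fell in juveniles, while in larvae 0 rose and 1 fell. The shares of all genes were 10.8% and 11.1% in juveniles and 1.87% and 2.05% in larvae. The difference was called higher for 49 (43.8%, against 1.87% of all genes) and lower for 0. The medians were −0.03 in larvae, 0.61 in juveniles and 0.67 for the difference. Levels before treatment were alike, with a median log2 ratio of juveniles to larvae of 0.17.

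Tekt4-1 (SCA02257, chr2A_Sc2) is a tektin. It had 2286, 2532 and 2351 normalized counts in larvae without and 2590, 2191 and 2058 with irradiation, and 3186, 3337 and 3414 in juveniles without and 7797, 7035 and 6381 with irradiation. Larvae overlapped and juveniles did not, and the difference was 1.16 ± 0.17 (adjusted p = 0.0111), with a larval change of −0.07 ± 0.12 and a 95% interval of −0.33 to 0.19. Dnal1-1 (SCA14186, chr1A_Sc2), a light chain of axonemal dynein, rose by 1.22 ± 0.15 in juveniles and had a larval change of 0.02 ± 0.15 with an interval of −0.31 to 0.34. Summed over the list, irradiated juveniles had 282757 to 330777 normalized counts against 185414 to 194767 in their controls, and irradiated larvae 163330 to 187722 against 173316 to 177761. Left out in turn, the libraries gave 67 to 82 cilia genes called higher in juveniles, and 18 to 51 called higher for the difference. The lowest of these was without the first control juvenile pool.

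Some genes of ribosome assembly also rose in juveniles alone. Of 105 ribosome biogenesis genes tested, 12 were of this class and 2 were called in larvae only. In juveniles 46 rose and 1 fell, where 10.8% and 11.1% of all genes did, and in larvae 0 rose and 4 fell. This list was put together after values had been seen. The difference was higher for 15 (14.3%, against 1.87% of all genes) and lower for 0. The medians were −0.17 in larvae, 0.52 in juveniles and 0.69 for the difference. With libraries left out in turn, 1 to 22 were called higher, the fewest without the second control larval pool, and 1 gene was called every time. A single gene, Ddx21, named for an RNA helicase of the nucleolus and chosen after its values were seen, held much of the reads of the list. It had 45312, 48768 and 48002 normalized counts in control and 27166, 22865 and 28066 in irradiated juveniles. The summed level of the list was lower after irradiation in both stages, at 61166 to 63833 normalized counts against 70133 to 81150 in juveniles and 50440 to 53652 against 66014 to 73241 in larvae, and so went against the median in juveniles. Tma16-1 (SCA27002, chr18A_Sc2), a translation machinery-associated protein, rose by 1.18 ± 0.17 in juveniles. It had 71.8, 104 and 90.3 normalized counts in control juveniles and 202, 228 and 176 in irradiated ones, 178, 167 and 146 in control larvae and 137, 139 and 122 in irradiated ones. Its difference was 1.48 ± 0.24 (adjusted p = 0.0117).

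Nop14 (SCA20194, chr7A_Sc2), a nucleolar protein of small subunit assembly chosen after its values were seen, was instead called in larvae only, where it fell by 0.65 ± 0.15, and had a juvenile change of 0.33 ± 0.15 (adjusted p = 0.13).

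Of the single genes named for a rise in juveniles alone, Tha-1 (SCA16947, chr21A_Sc2) had a far higher level in larvae. The normalized counts were 1094, 1151 and 929 in control larvae and 1127, 1177 and 1195 in irradiated ones, and 13.4, 5.85 and 12.9 in control juveniles and 41.5, 51.4 and 62.6 in irradiated ones. The larval groups overlapped. Juveniles rose by 2.21 ± 0.24 from a far lower level (a log2 ratio of −6.54 ± 0.23 in controls) and remained below every larval library after irradiation. The difference was 2.07 ± 0.29 (adjusted p = 0.0111). Moxd1-6 (SCA13104, chr20A_Sc2), named for a monooxygenase related to dopamine beta-hydroxylase, rose by 2.35 ± 0.46 in juveniles, from 25.6, 8.77 and 19.99 to 59.7, 76.4 and 143 normalized counts, against 734, 331 and 778 in control larvae. The copies Moxd1-5 and Moxd1-3, chosen after their values were seen, lie on the same chromosome. They had differences of 2.26 ± 0.51 (adjusted p = 0.0328) and 2.18 ± 0.51 (adjusted p = 0.0378). Each was not called when any 1 of 8 libraries was left out. Hebp2-1, named for a heme-binding protein, had 13.4, 23.4 and 8.38 normalized counts in control juveniles, 58.7, 54.03 and 40.3 after irradiation and 734, 850 and 821 in control larvae. Its difference was 1.71 ± 0.39 (adjusted p = 0.0348). Siat2-22, named for a sialyltransferase, differed by 1.81 ± 0.41 (adjusted p = 0.0328). It rose by 0.88 ± 0.27 in juveniles, and its larval change of −0.93 ± 0.30 (adjusted p = 0.1), which was not called, was in the other direction and about as large, with no overlap of the larval groups.

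**Figure D3:**
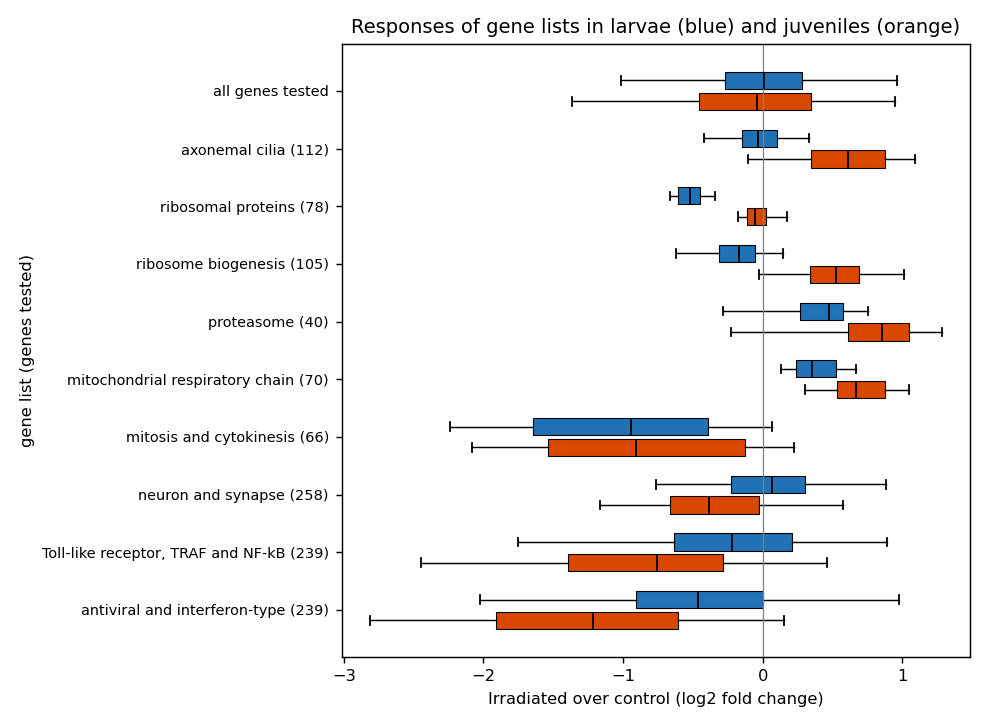
Log2 fold changes of the genes of each list (horizontal axis) in larvae (blue) and juveniles (orange), with the median as a line, the quartiles as a box and the 5th to 95th percentiles as whiskers. Cilia and ribosome biogenesis genes lie above 0 in juveniles only, ribosomal proteins below 0 in larvae only, and mitosis genes below 0 in both stages.

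Ribosomal proteins were called lower in larvae and not in juveniles, and for most of these the difference itself was not called. Of 78 tested, 50 fell in larvae and 0 rose, while in juveniles 0 fell and 1 rose. Over all genes, 2.05% fell and 1.87% rose in larvae, and 11.1% and 10.8% in juveniles. The difference was called higher for 13 and lower for 0 (16.7% and 0%, against 1.87% and 1.6% of all genes). Of the 13, 12 were called in larvae only, out of the 36 genes of that class. The medians were −0.52 in larvae, −0.05 in juveniles and 0.48 for the difference. Rl23 (SCA10956, chr23A_Sc2) is a protein of the large subunit. In larvae the controls had 21132, 17641 and 17071 normalized counts and the irradiated pools 11281, 11523 and 9680, and in juveniles the controls had 18735, 19958 and 17480 and the irradiated pools 22592, 17732 and 18750. All irradiated larvae lay below all other libraries, and the difference was 0.85 ± 0.18 (adjusted p = 0.0265). Rl4a-1, chosen after its values were seen, had the smallest of all the called differences, 0.55 ± 0.13 (adjusted p = 0.0393). Ribosomal proteins took 1076428 to 1278490 normalized counts in control larvae and 817229 to 822979 in irradiated ones, against 1381514 to 1500804 and 1290095 to 1567918 in juveniles. Rs10b (SCA17579, chr12A_Sc2) rose by 0.57 ± 0.11 in juveniles and was the member called there only. The calls for this list depended on single libraries: between 0 and 13 members had a called difference when libraries were left out in turn, with 0 without the first control juvenile pool, while 19 to 55 were called lower in larvae.

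Other genes that fell in larvae alone were of different kinds. Garem-1 (SCA06056, chr15A_Sc2), an adaptor between growth factor receptors and the MAP kinase pathway, fell by 2.31 ± 0.32 in larvae. Control larvae had 58.9, 49.5 and 45.7 and irradiated larvae 13.6, 5.65 and 10.1 normalized counts, while control juveniles had 94.96, 64.3 and 70.9 and irradiated juveniles 76.9, 55.3 and 60.7. Larvae did not overlap and juveniles did, and the difference was 2.06 ± 0.41 (adjusted p = 0.0207). Foxn4 (SCA09445, chr5A_Sc2), a forkhead transcription factor chosen after its values were seen, fell by 1.32 ± 0.15 in larvae, from 596, 674 and 580 to 259, 264 and 217, with a juvenile change of −0.11 ± 0.15 and an interval of −0.42 to 0.21. Ttpal-24, named for a tocopherol transfer protein, fell by 2.47 ± 0.49 in larvae with a difference of 2.92 ± 0.64 (adjusted p = 0.0288). Arrd3-2, an arrestin domain protein, fell by 3.12 ± 0.39 in larvae, but its juvenile change of −0.95 ± 0.38 was in the same direction and its difference was no longer called without any 1 of 11 libraries.

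Receptors of the fibroblast growth factor family were among the genes that fell more in larvae. Fgfr2-4 (SCA19669, chr7A_Sc2) was the only gene called lower in both stages with the larger fall in larvae. It had 3751, 3697 and 2574 normalized counts in larvae without and 731, 758 and 678 with irradiation, and 1600, 1289 and 1706 in juveniles without and 856, 904 and 1138 with irradiation. It fell by 2.21 ± 0.17 in larvae and fell by 0.66 ± 0.17 in juveniles, neither with overlap, and the difference was 1.54 ± 0.24 (adjusted p = 0.0113). Fgrl1-4 (SCA20341, chr7A_Sc2), a receptor-like protein chosen after its values were seen, fell by 2.37 ± 0.26 in larvae and had a juvenile change of −0.69 ± 0.26 (adjusted p = 0.072), a difference of 1.68 ± 0.36 (adjusted p = 0.0269).

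Genes that rose in larvae alone included a transglutaminase, a collagen receptor and a chaperone by name. Tgm1-2 (SCA04283, chr3A_Sc2), which in vertebrates cross-links proteins of the epidermis, is described first. The normalized counts were 156, 159 and 109 in control larvae and 588, 503 and 898 in irradiated ones, and 186, 224 and 188 in control juveniles and 115, 179 and 130 in irradiated ones. Irradiated larvae lay above every other library. It rose by 2.24 ± 0.24 in larvae, had a juvenile change of −0.50 ± 0.24, and differed by −2.74 ± 0.34 (adjusted p = 0.0065). The juvenile change was not called, but the irradiated juveniles lay below their controls without overlap. Mrc2-4 (SCA01244, chr8A_Sc2), named for an endocytic receptor of collagen, rose by 3.07 ± 0.33 in larvae, from 34.6, 60.8 and 31.1 to 436, 194 and 441. Juveniles had 66.96, 51.2 and 68.4 without and 71.8, 73.8 and 66.97 with irradiation, all near the control larvae, and the difference was −2.90 ± 0.45 (adjusted p = 0.0113). Pgbm-2 (SCA11668, chr22A_Sc2), named for perlecan of the basement membrane, rose by 2.74 ± 0.32 in larvae, from 76.2, 89.7 and 44.8 to 351, 324 and 729. It was not shown to be without response in juveniles, where the change was 0.79 ± 0.28 with an adjusted p of 0.0608 and the control level was 3338, 2549 and 2984.

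The second pool of irradiated larvae stood apart for 2 members of this class. Gst1-1, a glutathione S-transferase, had 7673, 23119 and 7254 normalized counts in irradiated larvae and Hsp70-3, a heat shock protein, 294, 1190 and 425. Their differences were −2.76 ± 0.60 (adjusted p = 0.0295) and −2.68 ± 0.62 (adjusted p = 0.0362). Without that pool they were −1.99 (adjusted p = 0.0315) and −1.85 (adjusted p = 0.0395), both still called, while each was no longer called when any 1 of 7 other libraries was left out. Acha7-3, an acetylcholine receptor subunit by name, rose by 1.08 ± 0.27 in larvae, but its difference of −1.30 ± 0.33 (adjusted p = 0.0481) was no longer called without any 1 of 11 libraries.

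In a pair of DNA damage genes both stages rose, by different amounts. Ppm1d, a phosphatase that p53 induces in vertebrates and that acts back on p53, rose in both stages and more in larvae. In larvae the controls had 353, 380 and 321 normalized counts and the irradiated pools 1482, 1261 and 1380, and in juveniles the controls had 398, 513 and 439 and the irradiated pools 848, 799 and 785. All groups were separate, with rises of 1.97 ± 0.13 in larvae and 0.85 ± 0.12 in juveniles and a difference of −1.12 ± 0.18 (adjusted p = 0.0113). Parp1-2, a poly(ADP-ribose) polymerase that binds DNA breaks, rose in both stages and more in juveniles. Control larvae had 372, 372 and 306 and irradiated larvae 1029, 979 and 1004 normalized counts, while control juveniles had 301, 278 and 322 and irradiated juveniles 1522, 1787 and 1524. The control levels were similar, the rises were 1.52 ± 0.12 and 2.42 ± 0.13, and the difference was 0.90 ± 0.17 (adjusted p = 0.0181). Of 116 genes on the DNA damage and p53 list, these were the 2 with a called difference, 0.862% in each direction and below the share of all genes. The medians of the list were −0.07 in larvae, 0.05 in juveniles and 0.03 for the difference. In larvae 11 rose and 1 fell, where 1.87% and 2.05% of all genes did. In juveniles 19 rose and 10 fell, where 10.8% and 11.1% of all genes did.

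Thtr-2, chosen after its values were seen, rose by 2.90 ± 0.31 in larvae and 1.18 ± 0.26 in juveniles. Its control level was higher in juveniles (231, 278 and 259) than in larvae (93.5, 36.1 and 29.2). Its difference of −1.72 ± 0.40 (adjusted p = 0.037) was not called when any 1 of 10 libraries was left out. C1qt6-2, named for a C1q and tumor necrosis factor related protein, and Sfrp5-1, a secreted antagonist of Wnt ligands, were chosen after their values were seen. They rose in both stages and more in juveniles, with differences of 1.89 ± 0.34 (adjusted p = 0.0141) and 1.10 ± 0.17 (adjusted p = 0.0113). Both were higher in control larvae than in control juveniles, by log2 ratios of −3.83 ± 0.26 and −1.34 ± 0.12 for juveniles over larvae. Cp2u1-35, a cytochrome P450, rose by 1.65 in larvae and 3.72 in juveniles, where controls had only 6.09, 2.92 and 5.80 normalized counts. H1d, a linker histone by name chosen after its values were seen, fell in both stages and more in juveniles. In juveniles it went from 5180, 4558 and 5455 to 1705, 1394 and 1455, and the difference was −0.93 ± 0.16 (adjusted p = 0.0137).

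Among cell division genes, called differences were no more frequent than over all genes. Of 66 mitosis and cytokinesis genes, 27 fell in larvae and 31 in juveniles and none rose. Over all genes, 2.05% fell in larvae and 11.1% in juveniles. The difference was called lower for 1 (1.52%, against 1.6% of all genes) and higher for 0 (against 1.87%). The medians were −0.94 in larvae, −0.91 in juveniles and 0.17 for the difference. Ince, a subunit of the chromosomal passenger complex, fell by 2.26 in larvae and 1.24 in juveniles, and the difference of 1.02 ± 0.30 had an adjusted p of 0.0799. The differences of Aspm-1, a spindle pole protein, and Dlgp5, a spindle protein, were 0.66 ± 0.35 (adjusted p = 0.318, 95% interval −0.09 to 1.41) and 0.04 ± 0.51 (adjusted p = 0.985, interval −1.05 to 1.14). Of Lbr-1, a lamin B receptor by name, the difference was 0.59 ± 0.48 (adjusted p = 0.544) and of Spne-2, a piRNA pathway helicase by name, −1.25 ± 0.85 (adjusted p = 0.451). These intervals are wide, and for 17 of the 66 genes the 95% interval of the difference lay within −1 to 1. Of 68 DNA replication genes, 9 fell in larvae and 18 in juveniles, to be read beside the same shares of all genes. Their medians were −0.29 and −0.31. In juveniles 4 also rose, where 10.8% of all genes did. The difference was called for 0 of the 68, and for 3.47% of all genes.

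Of 70 mitochondrial respiratory chain genes, 13 rose in larvae and 57 in juveniles, where 1.87% and 10.8% of all genes rose. The difference was called for 1 (1.43%), Nduaa (0.68 ± 0.15 (adjusted p = 0.0331)). Proteasome genes, also gathered after values had been seen, rose in 11 of 40 cases in larvae and 31 in juveniles. Of these 40, 3 had a higher difference (7.5%, against 1.87% of all genes). Of 258 neuron and synapse genes, 42 were lower and 2 higher in juveniles, where 11.1% of all genes were lower, and 1 was lower and 2 higher in larvae. For this list 5 differences were lower and 1 higher (1.94% and 0.388%, against 1.6% and 1.87% of all genes), among them Syt17-2, a synaptotagmin (−1.76 ± 0.32 (adjusted p = 0.0148)). The next lists are to be read beside the same shares over all genes, and several lie near them. Lysozymes, lectins and mucosal proteins had 7 lower and 1 higher difference of 234 (2.99% and 0.427%). Digestive enzymes had 1 of each of 115 (0.87% each), one of them Ampn-6 (−2.07 ± 0.41 (adjusted p = 0.0203)). Cytochrome P450 genes had 1 lower and 4 higher of 157 (0.637% and 2.55%), with Cp4f2-7 at 1.64 ± 0.37 (adjusted p = 0.0334). For collagens, laminins and matrix metalloproteinases it was 1 and 1 of 60 (1.67% each), with Fbn3-1, a fibrillin, at 0.67 ± 0.16 (adjusted p = 0.0382). For chaperones it was 2 and 0 of 58 (3.45% and 0%), with Ern1-3, a sensor of unfolded proteins, at −1.42 ± 0.35 (adjusted p = 0.0462). Core histones, of which only 4 of 184 genes passed the filter on low counts, had 1 lower difference, H4-25 (−1.06 ± 0.24 (adjusted p = 0.0357)). No gene of the Hox, muscle or germline lists (14, 30 and 35 tested) had one, and lists this short can hold none at the shares over all genes. Utp23 (1.38 ± 0.34 (adjusted p = 0.0437)), Psmg3-1 (1.28 ± 0.31 (adjusted p = 0.0424)) and Psa6 (0.87 ± 0.19 (adjusted p = 0.0307)) complete the genes named for their lists.

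**Figure D4:**
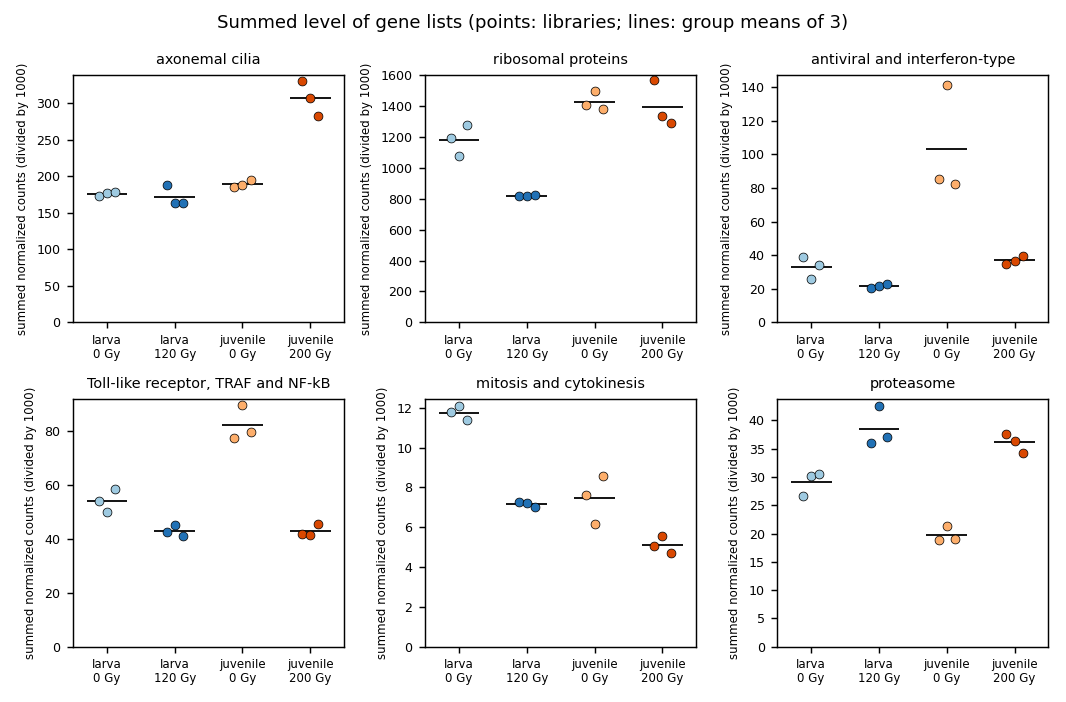
Summed normalized counts of 6 gene lists, divided by 1000 (vertical axes, starting at 0), with a point for each of the 3 libraries of a group and a line at the group mean. Cilia genes lie higher only in irradiated juveniles, ribosomal proteins lower only in irradiated larvae, and the second pool of control juveniles has the highest sum of antiviral genes, 141537.

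The level without irradiation differed between the classes. Both a response and a level use the control libraries, so the following values are given as a description with no test. Control juveniles and control larvae themselves differed in 13012 genes (62.6%), 6191 lower (29.8%) and 6821 higher (32.8%) in juveniles. Muscle genes had a median log2 ratio of control juveniles to control larvae of 1.62 and Hox genes, which pattern the trunk, one of 0.56. Over all genes tested the median log2 ratio of control juveniles to control larvae was 0.03, with 17.1% at least 2 higher in juveniles and 10.1% at least 2 higher in larvae. Among the 333 genes with a lower difference the median ratio was 1.27, 115 (34.5%) were at least 2 higher in juveniles and 9 (2.7%) at least 2 higher in larvae. Among the 389 with a higher difference it was −0.18, with 6 (1.54%) and 34 (8.74%).

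Genes that fell in juveniles alone were thus mostly genes with a higher level in juveniles. Their median normalized count in larvae was 169 without and 174 with irradiation, and in juveniles 436 without and 185 with irradiation, so that irradiated juveniles had about the larval level. In this class 37 of 251 genes (14.7%) had a mean under 20 over the larval libraries, where a fall could be poorly seen, against 22.5% of all genes. The larval 95% interval lay within −1 to 1 for 178 of the 251 (70.9%), and the rest were not bounded. Genes that rose in juveniles alone were about as high in both stages, with medians of 654 and 630 in control and irradiated larvae and 576 and 1049 in juveniles, and 311 of 327 (95.1%) had a bounded larval change.

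Genes that rose in larvae alone were also mostly higher in juveniles without irradiation, with a median ratio of 1.22 and 16 of 40 at least 2 higher. Their median normalized count went from 83.0 to 205 in larvae, beside 232 in control and 183 in irradiated juveniles. Genes that fell in larvae alone had a median ratio of 0.02, and medians of 751 and 440 in larvae and 604 and 713 in juveniles. The 10 genes that rose in larvae and fell in juveniles had a median ratio of 2.65, and the 7 called higher in both with the larger rise in larvae one of 3.15. In the latter the median normalized count of control larvae was 9.55, against 256 in control juveniles. No gene with a called difference was without reads in all libraries of a stage.

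**Figure D5:**
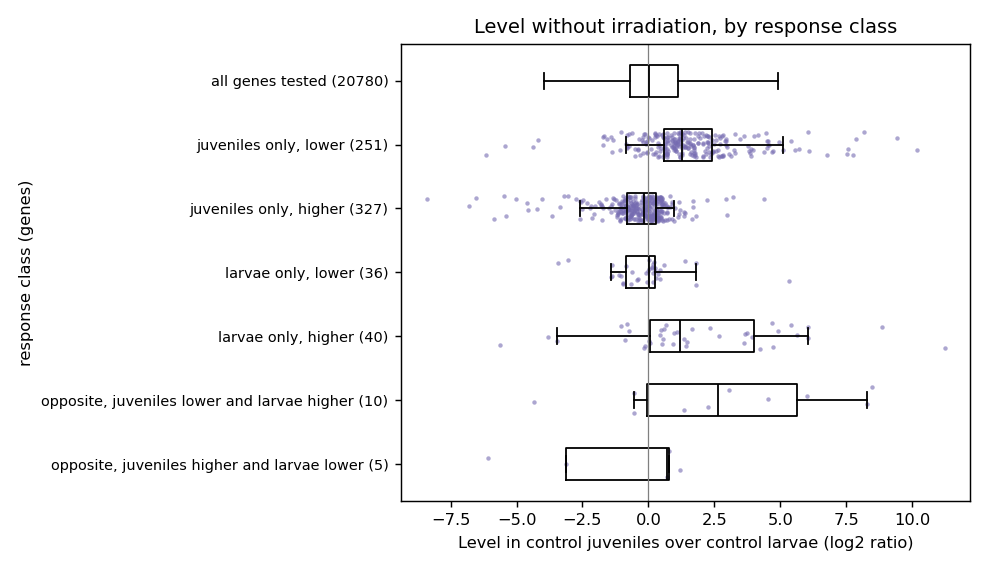
Log2 ratio of the level in control juveniles to that in control larvae (horizontal axis) for each class of response, with points for single genes, the median as a line, the quartiles as a box and the 5th to 95th percentiles as whiskers. The median lies at 1.27 for genes lower in juveniles only and at −0.17 for genes higher in juveniles only.

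Read by level, the share of genes with a lower difference was 1.03% of the 11285 genes whose control levels lay within a log2 ratio of 1 of each other. It was 4.2% at a ratio of 1 to 2 in favor of juveniles, 3.59% at 2 to 4 and 2.78% over 4. For genes higher in larvae it was 0.583% at 1 to 2, 0.186% at 2 to 4 and 0.681% over 4. A higher difference was called for 2.53% of the genes within 1, 2.44%, 1.95% and 1.26% of those 1 to 2, 2 to 4 and over 4 higher in larvae, and 0.87%, 0.2% and 0.129% of those 1 to 2, 2 to 4 and over 4 higher in juveniles. The precision also changed along this scale, with a median SE of the difference of 0.26 within 1, 0.43 at 1 to 2 in favor of juveniles and 1.07 over 4, and of 1.00 over 4 in favor of larvae, so that the shares in the outer groups are those of less well measured genes.

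The genes were spread over the genome. On the 23 chromosomes, a lower difference was called for 0.941% to 2.59% of the genes tested and a higher one for 0.403% to 2.73%. Uncharacterized genes made up 57 of the 333 and 57 of the 389, beside 3186 of the 20780 genes tested, a similar share. Leaving out each of the 12 libraries in turn, 156 of the 722 differences were called every time, 73 lower and 83 higher. They include 14 of the 15 genes called in opposite directions, 52 of the 251 lower and 70 of the 327 higher in juveniles only, and 5 each of the 36 and 40 called in larvae only, and 17 are cilia genes. Of the 67 genes named here with a called difference, 34 were called every time. Parp1-2, Ampn-6 and Rs10b were lost without 1 library each, Garem-1 and Nemo without 2, Cdk1-1 without 3, and Trpa1-13 without 5, while the other 26 were lost without 6 to 11 single libraries.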

How the data were processed

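The authors mapped paired reads of 12 libraries to the *S. californicum* genome with CLC Genomics Workbench (version not given in the sources used here), and deposited, for each library, counts of reads per gene for 27463 genes, without normalization. Total gene reads (exon plus intron reads, near-identical copies included) were used here. The deposited RPKM and TPM values, which the authors' software computed per exon length, were not used. Uniquely placed reads and exon reads served as alternatives.

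Counts were analyzed in R 4.3.3 with edgeR 4.0.16. filterByExpr on the 4 groups kept 20780 genes (99.9% of counts) and left out 6683. TMM factors ranged from 0.931 to 1.07. All 12 libraries were fitted with 1 mean per group and no covariate, since no batch is named and all libraries shared a lane. The contrasts of larvae, of juveniles, of their difference and of the control stages were tested two-sided by the quasi-likelihood F-test with Benjamini-Hochberg adjustment at 0.05. A gene counted as responding in 1 stage only where that stage and the difference were called and the other stage was not, and its other stage as bounded where the 95% interval lay within −1 to 1.

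Genes were named by a rule: in each class of 1-stage or opposite response, the 4 largest differences among annotated genes with a mean normalized count of at least 20 in each stage, at least 80% of reads uniquely placed and no overlap of libraries, with 1 copy per name, then the 2 largest per gene list, and genes the study names. Lists were made from gene names. The members, lists and rule were chosen with earlier results of these data known. Of the genes that the rule gave, 1 is not reported here. Other named genes are said to be chosen after their values were seen.

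Alternatives were DESeq2 1.42.0 (size factors and Wald test), limma 3.58.1 with voom, library totals, other filters, thinning, a stricter adjusted p, a fold threshold, a replicate block and leaving out each library. Counts of list members under each of these were added after seeing the data.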

Additional observations from a re-analysis of the deposited data

Results flagged for a closer look

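Of the genes named above, 67 are listed here because the test of the difference between the stages itself passed, with edgeR's quasi-likelihood test. All values are the juvenile minus the larval response on the log2 scale, and dose and stage cannot be told apart in them. Among genes called lower in juveniles only, the differences were −3.59 for Gbp3-2, −3.23 for Trpa1-13, −3.21 for Otop3-3, −2.98 for Ymd3-16, −1.55 for Cdk1-1, −2.78 for Gbp1-1, −2.56 for Tlr6-19, −1.76 for Syt17-2, −2.07 for Ampn-6, −2.52 for Rtbs-11, −1.42 for Ern1-3, −1.06 for H4-25, −2.71 for Atp7a-2 and −3.69 for Oas3-2. Among genes called higher in juveniles only, they were 2.97 for Moxd1-6, 2.07 for Tha-1, 1.81 for Siat2-22, 1.71 for Hebp2-1, 1.21 for Dnal1-1, 1.16 for Tekt4-1, 0.84 for Rs10b, 0.68 for Nduaa, 0.67 for Fbn3-1, 1.48 for Tma16-1, 1.38 for Utp23, 1.28 for Psmg3-1, 0.87 for Psa6, 2.26 for Moxd1-5 and 2.18 for Moxd1-3. For genes called lower in larvae only, the values were 2.92 for Ttpal-24, 2.17 for Arrd3-2, 2.06 for Garem-1, 0.85 for Rl23, 1.64 for Cp4f2-7, 0.98 for Nop14, 1.22 for Foxn4, 0.55 for Rl4a-1 and 1.68 for Fgrl1-4. For genes called higher in larvae only, they were −2.90 for Mrc2-4, −2.76 for Gst1-1, −2.74 for Tgm1-2, −2.68 for Hsp70-3, −1.30 for Acha7-3 and −1.95 for Pgbm-2. Where larvae rose and juveniles fell, the differences were −4.52 for Fcgbp-5, −1.52 for Acsf4-13, −1.36 for Ggh-3, −1.13 for Arsj-5 and −5.59 for Ttc22-14. Where larvae fell and juveniles rose, they were 2.21 for Gsta4-1, 1.76 for Tgfb2-2, 1.62 for Ampn-16 and 1.38 for Hmcn1-24. Where both stages fell, the values were −2.20 for Traf2-30, 1.54 for Fgfr2-4, −1.14 for Malt1, −0.90 for Nemo, −0.97 for Tnap3, −1.10 for Rnf31-2, −0.89 for Irak1-1 and −0.93 for H1d. Where both stages rose, they were −1.12 for Ppm1d, 0.90 for Parp1-2, 2.08 for Cp2u1-35, −1.72 for Thtr-2, 1.89 for C1qt6-2 and 1.10 for Sfrp5-1.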

How the results depend on the processing

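DESeq2's Wald test called 717 lower and 780 higher in place of 333 and 389, with 1112 genes in juveniles only (578), 191 in larvae only (76) and 36 in opposite directions (15). Limma voom (256 and 377), DESeq2's size factors, uniquely placed reads and exon reads stayed within 1.5 times. At an adjusted p of 0.01 there were 9 lower and 1 higher, with 8 in juveniles only, 1 in larvae only and 1 in opposite directions, and a test against a difference of 1.5-fold called 8 lower and 0 higher. Library totals in place of TMM called 394 lower and 264 higher, so that 40.1% and not 53.9% of calls were higher, and moved the median difference of all genes from −0.04 to −0.10. In libraries thinned to the smallest total, 46 genes were called in larvae only. The median log2 level ratio of genes with a lower difference, 1.27, was 1.16 with library totals, 0.95 with a mean of at least 20 in each stage, 0.98 with DESeq2, 0.98 with voom, 1.13 on exon reads and 2.82 at an adjusted p of 0.01.

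Leaving out 1 library at a time gave 104 to 344 lower and 104 to 445 higher differences, 170 to 651 genes in juveniles only, 20 to 72 in larvae only, 5 to 15 in opposite directions and level ratios of 1.16 to 1.63. The lowest counts came without the first irradiated juvenile pool (104 lower) and the first control juvenile pool (104 higher). Counts of lower and of higher differences both moved by over 1.5 times without any 1 of 7 libraries: the first and the second control larvae, the third irradiated larvae, the first and the third control juveniles, and the first and the second irradiated juveniles. The lower count alone did so without the first irradiated larvae (209) or the second control juveniles (209).

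The fit with a replicate block, a term for the replicate number within each stage, called 117 lower and 115 higher, with 193 genes in juveniles only, 18 in larvae only, 7 in opposite directions and a level ratio of 1.41. In it, 218 of the 722 genes remained called, with 16 cilia genes and 0 ribosomal proteins. Same-numbered control and irradiated pools did not deviate together (correlations of −0.048 to 0.097 in larvae and −0.13 to 0.0058 in juveniles), and not every pool correlated best with its own number.

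For the named genes, 6 values changed sign, all of Dlgp5 (0.04): −0.018 with library totals, −0.010 on uniquely placed reads, and −0.22 to 0.46 when libraries were left out. The sign of the others was kept in every setting run.

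The depth of 7675726 reads in the shallowest library limits genes of low counts, and all intervals cover counting error and the spread between 3 pools only. Reads of near-identical copies, as among the guanylate-binding and TRAF genes, were divided by the authors' mapping and could not be reassigned. The causes of these shifts were not tested.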
